A study of Rattus norvegicus with 9 samples.

Results

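The miRNAs of the miR-23a/27a/24-2 and miR-23b/27b/24-1 clusters were followed in rat serum. The 7 rows named miR-23a-3p, miR-23a-5p, miR-23b-3p, miR-27a-3p, miR-27a-5p, miR-27b-3p and miR-24-3p were taken by name from 567 miRNAs in the deposited count matrix, and all 7 passed the filter on low counts. Serum came from adult male wild-type Wistar rats, with 3 libraries in each of 3 groups. Rotenone, an inhibitor of mitochondrial complex I, was injected into the peritoneum every day at 2 mg/kg. The early group (EPD) received it over 10 days, and the late, terminal group (LPD) over more than 40 days. The remaining rats are named Control. What Control received is not stated, the treatment label reads the same for all 9 libraries, and the labels' treatment text says that rats of all groups had rotenone. Rotenone given this way reaches the whole body.

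Each cluster is transcribed as 1 primary RNA and cut into hairpins. A hairpin releases a 5p and a 3p arm, of which usually 1 is kept by Argonaute while the other is degraded. The 3p arms of these clusters are abundant in endothelium and in blood cells. miR-27 is known for its targets in lipid metabolism and in the growth of blood vessels, and miR-24 for targets in cell cycle and survival. miR-23a-3p is widely used as a serum reference, because it is little affected by lysis of red cells, and is set against miR-451 of red cells as an index of haemolysis.

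Sequences were found for 6 of the 7 miRNAs in the RefSeq table of the rat assembly GRCr8, and miR-23a-5p was not matched. They are shown because the clusters are paralogous and their products can be confused in counting. The seed (bases 2 to 8), by which a miRNA recognises its targets, is in capitals.
miR-23a-3p: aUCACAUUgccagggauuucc
miR-23b-3p: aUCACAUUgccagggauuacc
miR-27a-3p: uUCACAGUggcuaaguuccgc
miR-27b-3p: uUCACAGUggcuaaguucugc
miR-24-3p: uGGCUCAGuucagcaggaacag
miR-27a-5p: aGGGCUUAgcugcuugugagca
miR-23a-3p and miR-23b-3p share their seed and differ at 1 of 21 bases, U19A. miR-27a-3p and miR-27b-3p share theirs as well and also differ at 1 of 21, C19U. Positions are counted from 1 at the 5′ end, with the base of the first named miRNA in front. No other of the 693 mature names in the table has either seed. How reads with an error or a trimmed end at position 19 were assigned is not given in the sources used here, so the split between a and b copies is uncertain.

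In GRCr8 the hairpins Mir23a, Mir27a and Mir24-2 lie on the minus strand within 389 bases at chr19:40859455-40859843. Mir23b, Mir27b and Mir24-1 lie on the minus strand within 814 bases at chr17:1818669-1819482. These positions belong to the sequence table, since the counts were made on another build. The mature miR-24-3p is the same in both clusters, so its counts are the sum of both. The hairpin of miR-27a carries both arms counted here, which are in capitals, the 5p arm first.
Mir27a: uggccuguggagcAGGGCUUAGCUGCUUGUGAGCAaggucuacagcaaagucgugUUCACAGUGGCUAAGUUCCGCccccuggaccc

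The libraries held 1108167 to 1539557 counts in Control, 1136537 to 1668807 in EPD and 132609 to 305019 in LPD. Every LPD library was shallower than every other, so depth and the late group cannot be told apart. From the number of miRNAs with any count, 1 molecule was estimated to stand for 122, 221 and 81.3 CPM (counts scaled to a common library size) in LPD 1, 2 and 3, against 0.577 to 3.44 CPM elsewhere. This estimate takes the mean profile of Control and EPD as that of LPD. It puts 36.7, 49.1 and 12.3 counts to a molecule in LPD 1, 2 and 3, yet 3, 9 and 39 miRNAs had only 1 to 9 counts there. Such counts lie below 1 estimated molecule, so the estimate is rough. In Control 2 the hepatocyte miRNAs summed to 696990 CPM, and its scaling factor by TMM (trimmed mean of M-values) was 0.669. The other factors lay between 0.877 and 1.14. CPM are divided by the factor, so that sum is not a share of the library's counts. In Control 2 miR-122-5p, the largest of the hepatocyte miRNAs, had 518364 of 1171056 counts.

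The 7 miRNAs together took 2.57 ± 0.237% of all counts in Control (mean ± SD, n = 3), 2.88 ± 0.812% in EPD and 2.40 ± 0.478% in LPD, so their joint share overlapped between the groups. The order of mean CPM in Control was miR-23a-3p, miR-24-3p, miR-27b-3p, miR-27a-3p, miR-23b-3p, miR-27a-5p and miR-23a-5p. All have 21 or 22 bases where a sequence was found, and differences in ligation between sequences were not corrected. The first 3 overlapped in Control and in EPD, and so did both 5p arms. miR-27a-3p lay below miR-27b-3p and above miR-23b-3p in every Control and EPD library. In LPD the order of the 3p arms was the same by mean, but miR-27b-3p now lay below miR-24-3p in every library, and miR-27a-3p overlapped with miR-23b-3p.

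**Figure D1:**
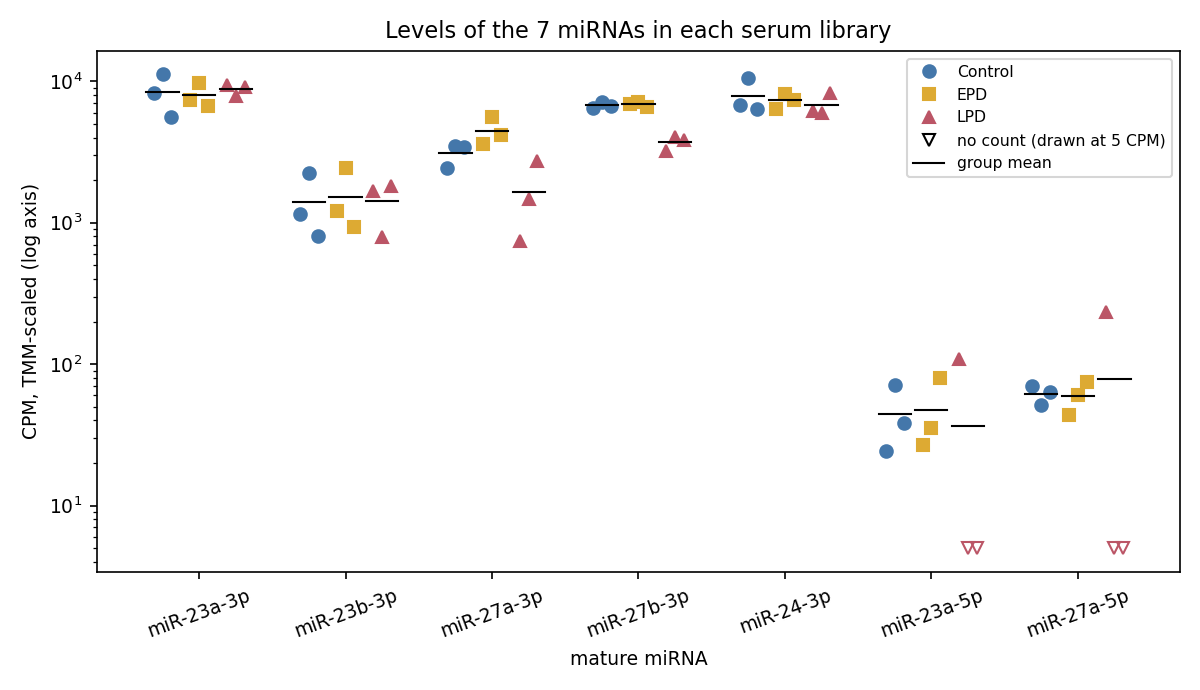
CPM scaled by TMM (log axis) of each of the 7 miRNAs in every library, by group, with lines at the group means (zeros included). miR-27b-3p sits at 3213 to 4040 CPM in LPD, below all 6 other libraries, while miR-23a-3p and miR-24-3p overlap between the groups, and both 5p arms have no count in LPD 2 and LPD 3.

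Of the 7 miRNAs, 0 passed the test after 10 days of rotenone, and in the late group miR-27b-3p was lower than in Control and both miR-27 3p arms were lower than in EPD. miR-23a-3p, miR-23b-3p and miR-24-3p did not pass in any comparison. All 294 miRNAs that passed the filter were tested by edgeR (quasi-likelihood), and a call needed a Benjamini-Hochberg adjusted p under 0.05. It called 0% of all tested miRNAs in EPD against Control, 37.1% in LPD against Control (4.42% higher, 32.7% lower) and 36.7% in LPD against EPD (4.08% higher, 32.7% lower). The count of 1 lower among 7 in LPD against Control, and of 2 among 7 in LPD against EPD, stands beside that share, which includes scarce miRNAs with no count in LPD. Among the 124 miRNAs with counts in all 9 libraries, 27 and 29 were called lower in these comparisons, and among the 5 3p arms, all of which are in that set, 1 and 2. At an unadjusted p under 0.05 the counts were 0, 1 and 2 of the 7, against 11, 127 and 132 of all 294. DESeq2 and limma-voom each called 0, 1 and 2 of them as well.

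miR-27b-3p had 6533, 7141 and 6678 CPM in the Control libraries, 6971, 7153 and 6631 in EPD and 3213, 4040 and 3857 in LPD. Control and EPD thus covered the same narrow range, and each LPD library lay below it. In LPD against Control the log2 fold change was -0.87 (SE 0.21, adjusted p = 0.0102 by edgeR, n = 3 each, lower in 3 of 3), with means of 3703 ± 434 and 6784 ± 318 CPM. Against EPD it was -0.90 (SE 0.21, adjusted p = 0.00936 by edgeR). For EPD against Control it was 0.03, with a 95% interval of -0.44 to 0.49.

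The calls for miR-27b-3p held in 8 of 18 alternatives for LPD against Control and in 10 of 18 for LPD against EPD, while all 18 values were negative in both. In LPD against Control the log2 fold change ranged from -0.93 to -0.58 with adjusted p of 0.0104 to 0.153. Among other settings it missed the threshold with DESeq2's size factors in edgeR (-0.60, adjusted p = 0.0794), with library totals (-0.72, 0.0951) and when only 2 groups were fitted (-0.76, 0.116). It also missed it without LPD 1 (-0.58, 0.153), LPD 3 (-0.65, 0.0804), Control 2 (-0.66, 0.0782) or EPD 1 (-0.71, 0.0671). On counts per estimated molecule, where the LPD libraries held 26, 18 and 47 molecules of miR-27b-3p, it stood at -0.80 (adjusted p = 0.116). Against EPD the range was -1.04 to -0.56 with adjusted p of 0.0114 to 0.107. That call was lost without EPD 1 (-0.80, 0.0710), LPD 1 (-0.70, 0.1) or LPD 3 (-0.78, 0.0526), and with DESeq2's size factors in edgeR (-0.60, 0.0814).

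The choice of scaling shifted the median of all miRNAs in the late comparisons. With TMM the median log2 fold change of the 124 miRNAs with counts in all 9 libraries was -0.21 in LPD against Control, with DESeq2's size factors 0.02 and with library totals -0.05. Relative to that median, miR-27b-3p stood at -0.67, -0.62 and -0.66 under these scalings, miR-27a-3p at -0.72, -0.71 and -0.67, and miR-23a-3p at 0.28, 0.31 and 0.34. Subtracting the median removes the scaling by construction, so these near-equal values do not test it. The edgeR call for miR-27b-3p in LPD against Control depended on the scaling. DESeq2, with its own size factors, kept that call (-0.60, adjusted p = 0.0104 by DESeq2), so the call depended on the test as well.

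miR-27a-3p, the paralogue with the same seed, had 2444, 3462 and 3460 CPM in Control, 3577, 5572 and 4176 in EPD and 749, 1467 and 2723 in LPD. All EPD libraries lay above all Control libraries, by a narrow margin, and the LPD libraries spanned 1.86 on the log2 scale where Control spanned 0.50. LPD against EPD gave a log2 fold change of -1.43 (SE 0.45, adjusted p = 0.0322 by edgeR, n = 3 each, lower in 3 of 3), with means of 1646 ± 999 and 4442 ± 1023 CPM. Against Control it was -0.93 (SE 0.44, adjusted p = 0.146), where the interval of -1.93 to 0.07 includes 0 and LPD 3 lay within the Control range. With single libraries left out this value ranged from -1.22 without LPD 3 (adjusted p = 0.0550) to -0.44 without LPD 1 (0.344). EPD against Control gave 0.51 with an interval of -0.48 to 1.5 (adjusted p = 0.995).

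In LPD the counts of miR-27a-3p stood for an estimated 6, 7 and 33 molecules, so by this rough estimate its level there rests on very few. The call against EPD held in 8 of 18 alternatives (-1.82 to -1.03, all negative). It was lost without any EPD library (adjusted p = 0.0551, 0.1 and 0.0610 without EPD 1, 2 and 3), without LPD 1 (0.0651) or LPD 2 (0.0763), and, among other settings, with DESeq2's size factors in edgeR (0.0603). In EPD against Control the groups did not overlap for 1 of the 7 (miR-27a-3p, higher), beside 12.9% of all tested miRNAs (4.76% higher, 8.16% lower). In LPD against Control this held for 1 of 7 (miR-27b-3p, lower), beside 48.3% (6.46% higher, 41.8% lower). In LPD against EPD it held for both miR-27 3p arms, lower, beside 52.4% (6.8% higher, 45.6% lower).

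**Figure D2:**
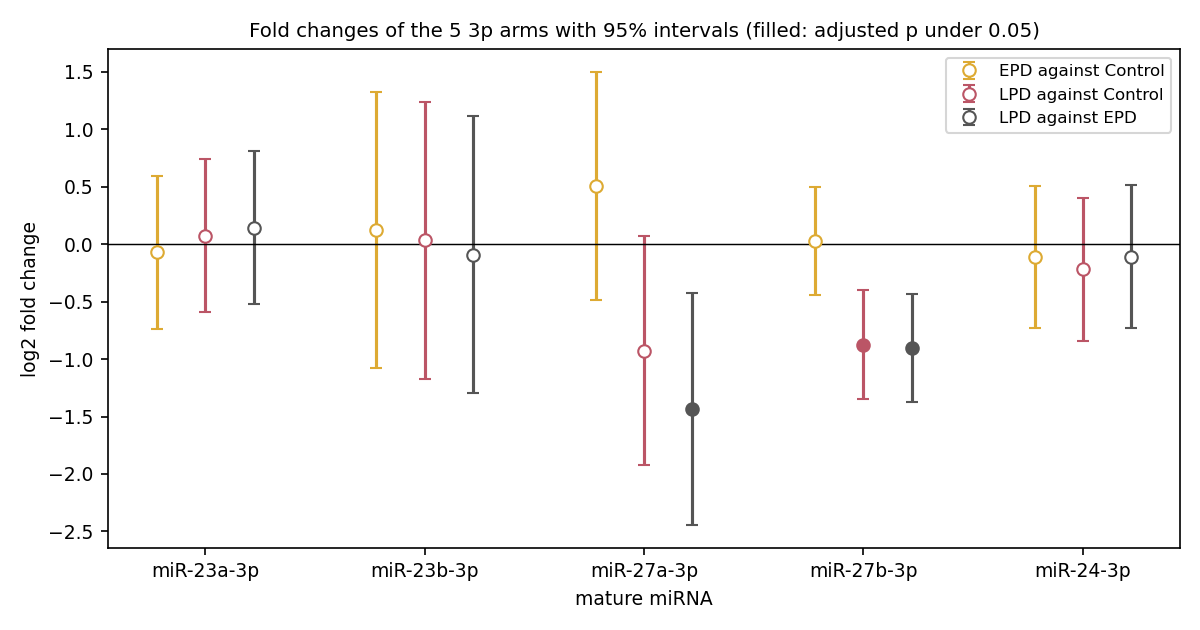
Log2 fold changes of the 5 3p arms in the 3 comparisons, with 95% intervals from the edgeR fit, filled where the adjusted p was under 0.05. Only miR-27b-3p (-0.87 and -0.90) and, against EPD, miR-27a-3p (-1.43) are filled, while the intervals of miR-23a-3p, miR-23b-3p and miR-24-3p include 0 throughout.

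miR-23a-3p, the reference miRNA, had 8266, 11194 and 5598 CPM in Control, 7439, 9766 and 6678 in EPD and 9351, 7837 and 9184 in LPD. The Control libraries spanned 1.0 on the log2 scale, more than EPD (0.55) or LPD (0.25), and enclosed all values of the treated groups. Its raw counts in Control were nearly level, at 10151, 8763 and 9697, and the scaled value of Control 2 is high beside that library's low scaling factor. The log2 fold change was -0.07 in EPD against Control (95% interval -0.73 to 0.60), 0.07 in LPD against Control (-0.59 to 0.74) and 0.14 in LPD against EPD (-0.52 to 0.81). Changes within these bounds were not resolved. Without Control 2 the EPD value stood at 0.33 and the LPD value at 0.51, both without a call.

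miR-24-3p, made by both clusters, showed 6759, 10613 and 6380 CPM in Control, 6412, 8189 and 7392 in EPD and 6148, 5979 and 8268 in LPD. Control 2 was again the highest library. Its log2 fold change was -0.11 (95% interval -0.73 to 0.51), -0.22 (-0.84 to 0.40) and -0.11 (-0.73 to 0.51) in EPD against Control, LPD against Control and LPD against EPD. These small negative values turned positive under DESeq2's size factors in both late comparisons (0.03 and 0.16), so no direction is given.

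miR-23b-3p had 1147, 2250 and 808 CPM in Control, 1206, 2446 and 928 in EPD and 1686, 796 and 1820 in LPD. It varied about as much within each group as over all 9 libraries. With intervals of -1.08 to 1.33, -1.17 to 1.24 and -1.30 to 1.11 for EPD against Control, LPD against Control and LPD against EPD, a change of 1 on the log2 scale in either direction was not resolved. In LPD its counts stood for an estimated 14, 4 and 22 molecules.

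The 5p arms were scarce. miR-23a-5p had 30, 56 and 66 counts in Control, 39, 46 and 128 in EPD, and 33, 0 and 0 in LPD. miR-27a-5p had 86, 40 and 110 counts in Control, 64, 78 and 120 in EPD, and 71, 0 and 0 in LPD. Both were thus counted in LPD 1 and in neither of the other late libraries. The 33 and 71 counts in LPD 1 correspond to an estimated 1 and 2 molecules. In CPM the means were 44.7 ± 24.2 and 61.5 ± 9.62 in Control and 47.5 ± 28.8 and 59.7 ± 15.8 in EPD, which is below the 81.3 to 221 CPM that 1 molecule stood for in LPD. By this rough estimate their late levels, present or absent, were therefore not measurable. The estimate itself rests on how many miRNAs had counts. By counts alone, 3 counts stood for 9.94, 13.5 and 19.8 CPM in LPD 1, 2 and 3. A fall and a lack of sampled molecules cannot be told apart here. The fitted late values of these arms, given with the processing alternatives, are no measure of a fold.

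By edgeR neither 5p arm passed in any comparison (adjusted p = 0.995 for both in EPD against Control, 0.908 and 0.851 in LPD against Control, 0.874 and 0.844 in LPD against EPD). Without LPD 1, where the late group has no count left, both were called lower than Control (adjusted p = 0.0237 and 0.0105) and lower than EPD (0.0216 and 0.00975). By the rough estimate above, zeros at a level under that of 1 late molecule do not show a fall, so these calls are not read as one.

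The 3p arm was by far the more abundant for miR-23a and for miR-27a, the hairpins whose 5p arms passed the filter. Per count of miR-23a-5p there were 333, 155 and 146 counts of miR-23a-3p in Control and 276, 273 and 82.8 in EPD. Per count of miR-27a-5p there were 34.7, 66.9 and 54.2 counts of miR-27a-3p in Control and 81.2, 92.1 and 55.2 in EPD (0.5 counts added to each arm). The 3p share was larger for miR-23a than for miR-27a in every Control and EPD library. Mean log2 arm ratios were 7.61 ± 0.66 in Control and 7.52 ± 0.997 in EPD for miR-23a (exact two-sided permutation p = 0.9, n = 3 each). For miR-27a they were 5.65 ± 0.48 and 6.22 ± 0.38, 0.57 higher in EPD (exact permutation p = 0.2, n = 3 each), with overlapping groups. LPD 1, where both arms had counts, gave linear ratios of 84.3 and 3.17. The latter lay below every Control and EPD library, with 226 counts of miR-27a-3p against 71 of its 5p arm, which is an estimated 6 molecules against 2.

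Ratios within a library do not depend on scaling, and these are given next. miR-27a-3p is cut from the same transcript as miR-23a-3p. Counts of miR-27a-3p per count of miR-23a-3p were 0.296, 0.309 and 0.618 in Control, 0.481, 0.571 and 0.625 in EPD and 0.0802, 0.187 and 0.297 in LPD. The late libraries lay below all EPD libraries, by 1.76 on the log2 scale (means -2.60 ± 0.96 and -0.85 ± 0.19). They overlapped with Control only in that LPD 3 lay just above Control 1 (log2 difference of the means -1.22). Exact two-sided permutation tests gave p = 0.1 against EPD and p = 0.2 against Control (n = 3 each), where 0.1 is the smallest p that 3 against 3 libraries can give.

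For miR-27b-3p per count of miR-23a-3p the values were 0.790, 0.638 and 1.19 in Control, 0.937, 0.732 and 0.993 in EPD and 0.344, 0.516 and 0.420 in LPD. This pair crosses the clusters and was added after the values had been seen. Every late library lay below every other library, by 1.0 log2 against Control and 1.06 against EPD (exact permutation p = 0.1 each, n = 3 each).

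Counts of miR-24-3p per count of miR-23a-3p were 0.818, 0.948 and 1.14 in Control, 0.862, 0.839 and 1.11 in EPD and 0.658, 0.763 and 0.900 in LPD. The late mean was 0.32 log2 lower than in Control and 0.27 lower than in EPD (exact permutation p = 0.2 and 0.3, n = 3 each), and the groups overlapped. miR-27b-3p per miR-23b-3p, the pair within the other cluster, was 0.96 log2 lower in LPD than in Control and 0.85 lower than in EPD, with overlap (exact permutation p = 0.2 each, n = 3 each).

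The ratios between the a and b copies overlapped in all comparisons. The log2 ratio of miR-23a-3p to miR-23b-3p was 2.65 ± 0.29 in Control, 2.49 ± 0.44 in EPD and 2.70 ± 0.52 in LPD (exact permutation p = 0.6, 0.9 and 0.7, n = 3 each, for EPD against Control, LPD against Control and LPD against EPD). The log2 ratio of miR-27a-3p to miR-27b-3p was -1.14 ± 0.25, -0.66 ± 0.30 and -1.35 ± 0.80 (exact permutation p = 0.2, 0.7 and 0.3, n = 3 each). Leaving aside the added pair, 21 tests were run on ratios between these miRNAs, of which 1 had groups without overlap. Adjusted over all 39 ratio tests run, no p was below 0.65.

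**Figure D3:**
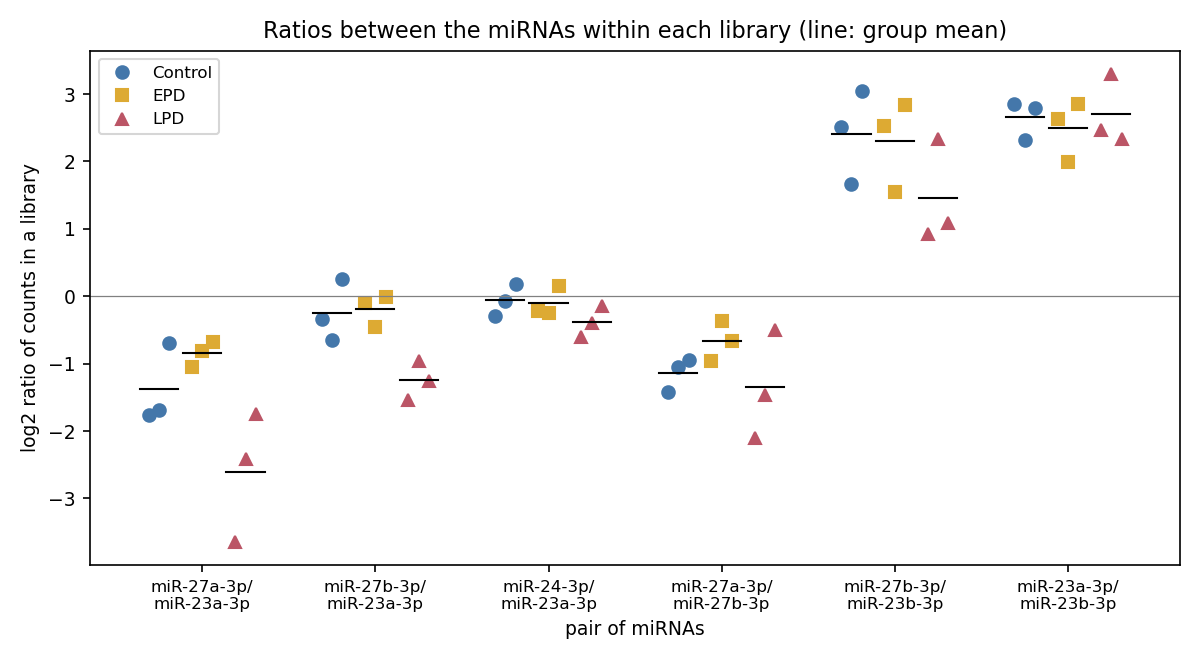
Log2 ratio of the counts of 2 miRNAs within each library (0.5 counts added to each), with lines at the group means. The ratios of miR-27a-3p and miR-27b-3p to miR-23a-3p are lowest in LPD (means -2.60 and -1.25), while miR-24-3p to miR-23a-3p stays between -0.60 and 0.19.

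As a reference miRNA, miR-23a-3p was among the steadier ones over the whole series. The SD of its log2 CPM over 9 libraries was 0.30 (coefficient of variation 20.4%), which ranked 7 of the 124 miRNAs with counts in all libraries, whose median SD was 0.75. miR-24-3p was steadier still by this measure (SD 0.27, rank 4). miR-27b-3p ranked 19 (0.46), miR-23b-3p 41 (0.62) and miR-27a-3p 73 (0.87). These are descriptions with no test.

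The rank of miR-23a-3p depended on the late libraries. Over the 6 Control and EPD libraries alone its SD was 0.38 and it ranked 47 of 124, while miR-24-3p ranked 26. With DESeq2's size factors and library totals these ranks of miR-23a-3p were 53 and 25. Within groups it ranked 22 (pooled SD 0.34). miR-27b-3p showed the opposite pattern. Its pooled SD within groups was 0.11, the lowest of the 124 with TMM, and 0.18 (rank 4) and 0.29 (rank 10) with DESeq2's size factors and library totals. It was thus tight within a group and shifted in the late one.

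Other miRNAs in use as serum references fared differently. Of a panel of 12 such miRNAs, 11 had counts in all libraries. miR-30e-5p (SD 0.14, rank 1), miR-425-5p (0.23, rank 2) and miR-103-3p (0.30, rank 6) ranked ahead of miR-23a-3p, and miR-16-5p (0.71, rank 53) and miR-191a-5p (1.45, rank 107) far behind. In LPD against Control 2 of the 12 were called higher (let-7a-5p and miR-423-5p) and 3 lower (miR-191a-5p, miR-186-5p and miR-484). miR-484 had no count in LPD and was elsewhere below the estimated level of 1 late molecule, so by that rough estimate its fall was not measurable. The median log2 fold change of the panel was -0.22, that of the 7 miRNAs described here -0.22, that of all tested miRNAs -1.04 and that of the 124 with counts in all libraries -0.21. miR-423-5p stood at 1.31 (SE 0.36) and miR-191a-5p at -2.33 (SE 0.45), with adjusted p = 0.0178 and 0.00522 by edgeR.

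**Figure D4:**
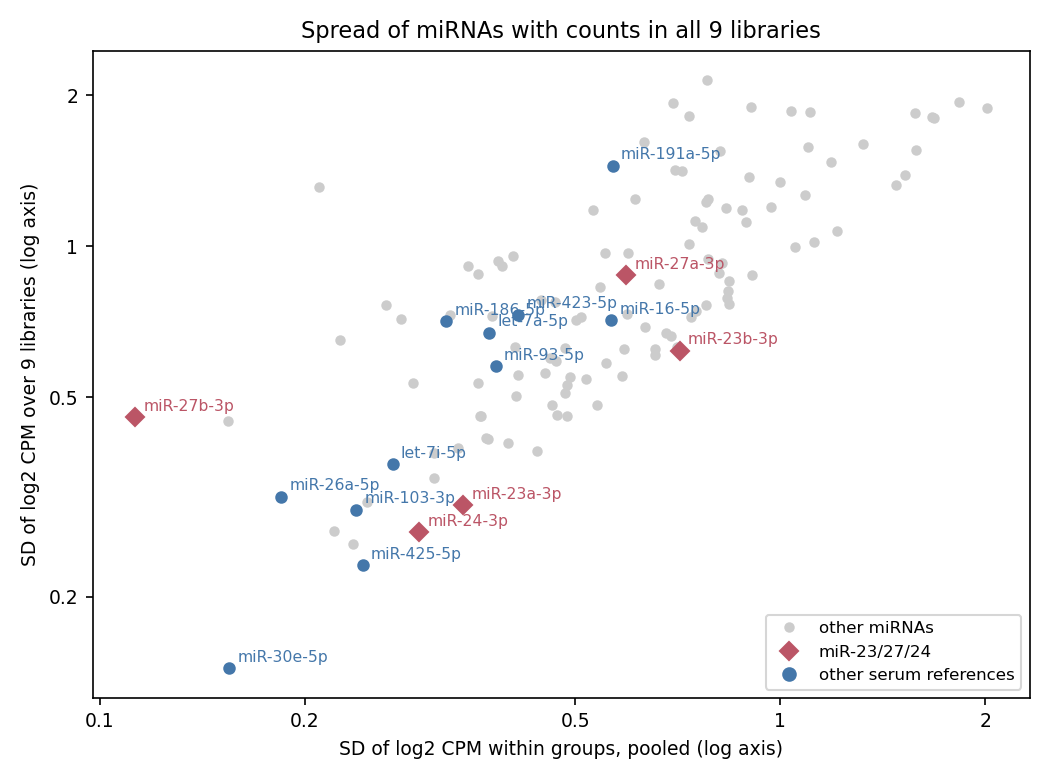
SD of log2 CPM over all 9 libraries against the pooled SD within groups (both axes logarithmic) for the 124 miRNAs with counts in every library. miR-24-3p and miR-23a-3p lie low on the vertical axis (0.27 and 0.30), and miR-27b-3p lies at the far left (0.11 within groups) but at 0.46 over all libraries.

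Because miR-23a-3p serves as the denominator of a haemolysis index, the log2 ratio of miR-451-5p, a red cell miRNA, was computed against each 3p arm. Against miR-23a-3p it was 0.71 higher in LPD than in Control, and against miR-23b-3p 0.76 higher, with overlapping groups (exact permutation p = 0.3 and 0.4, n = 3 each). Against miR-24-3p the late libraries were higher by 1.03, against miR-27b-3p by 1.72 and against miR-27a-3p by 1.93, each without overlap (exact permutation p = 0.1 each, n = 3 each). For miR-24-3p the margin was very narrow, with -2.980 in LPD 2 and -2.996 in Control 3. The choice of denominator within these clusters thus moved the late difference from 0.71 to 1.93. Against EPD the late differences for the 5 denominators ran from -0.0036 for miR-23a-3p to 1.75 for miR-27a-3p, all with overlap. EPD 1 alone made this overlap, and EPD 2 and EPD 3 lay below every late library for each denominator. Against miR-23a-3p the log2 ratios were -1.35, -3.63 and -4.01 in EPD and -3.05, -3.37 and -2.58 in LPD. The 4 red cell markers found in the files summed to 7662 to 10710 CPM in Control, 8599 to 43220 in EPD and 20979 to 53129 in LPD, and 1 of them, miR-486, was called higher in LPD than in Control, by 2.18 on the log2 scale (SE 0.65, adjusted p = 0.0264 by edgeR). None of the 4 was at 0 in any group. The part of red cell RNA in the late values of the miR-27 arms was not tested. In serum, fewer releasing cells and less RNA per cell cannot be told apart.

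By pattern over the 9 libraries, the miRNAs outside the clusters most like miR-23a-3p were miR-30a-5p, miR-425-5p and miR-30e-5p, with root mean square differences of centred log2 CPM of 0.25, 0.25 and 0.32 among 119 candidates. miR-24-3p was closer (0.24) and miR-27a-3p far (0.91). Most like miR-27b-3p was miR-146b-5p (0.12), with 1327 ± 138 CPM in Control, 1334 ± 144 in EPD and 734 ± 84.0 in LPD. The log2 fold change of miR-146b-5p in LPD against Control was -0.85 (SE 0.28, adjusted p = 0.0385 by edgeR). As it was picked for its likeness to miR-27b-3p in these libraries, this value follows largely from the choice and is no separate evidence. let-7i-5p (0.30) and miR-342-3p (0.31) followed, whereas the nearest miRNA of the clusters, miR-24-3p, stood at 0.41.

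The remaining products of the clusters were at the limit of detection. miR-23b-5p, miR-27b-5p, miR-24-2-5p and miR-3074 together had 8.96 to 11.5 CPM in Control, 6.83 to 15.1 in EPD and no count in LPD, and 0 of the 4 were tested. The highest was miR-23b-5p, with 2, 6 and 10 counts in Control and 8, 6 and 18 in EPD. miR-24-1-5p was not analysed here.

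miR-128-3p, enriched in brain, is related to miR-27 by sequence, since its seed occurs at bases 3 to 9 of both miR-27 3p arms.
miR-128-3p: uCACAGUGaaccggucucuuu
It had 4809, 9193 and 6125 CPM in Control, 6949, 3774 and 14636 in EPD and 3388, 3455 and 2176 in LPD. All late libraries lay below all others. In LPD against EPD it was lower (log2 fold change -1.49, SE 0.49, adjusted p = 0.0394 by edgeR), and in LPD against Control it stood at -1.16 (SE 0.49, adjusted p = 0.0994).

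Of 7 endothelial miRNAs tested, 2 were called higher in LPD against Control and 0 lower, beside 4.42% and 32.7% of all tested miRNAs. The 2 were miR-126a-5p (log2 fold change 1.52, SE 0.32, adjusted p = 0.00658 by edgeR) and miR-92a-3p (1.5, SE 0.36, adjusted p = 0.0102). Only 3 of the 7 values were positive, and the median was -0.61. Without a call, miR-31a-5p stood at -2.21 and miR-218a-5p at -1.62, both below Control without overlap, as were 41.8% of all tested miRNAs. miR-221-3p (-1.42) and miR-222-3p (-0.61) were not called either. In LPD 1, 2 and 3 miR-31a-5p had 41, 19 and 0 counts, miR-218a-5p 24, 0 and 15, and miR-222-3p 0, 0 and 42. The values of these 3 thus rest on late libraries with zeros. The 277 CPM of miR-222-3p in LPD 3 exceeded every Control library. The summed level of the 7 was 17612 to 21171 CPM in Control and 23280 to 40449 in LPD. Platelet markers summed to 63942 to 80134 and 60015 to 91624 CPM, and leukocyte markers to 44671 to 56968 and 72390 to 97917, with miR-126a-3p in both the endothelial and platelet lists and miR-223-3p in both the platelet and leukocyte lists. Within the platelet list miR-199a-3p was called lower (-1.80, adjusted p = 0.00522 by edgeR) and miR-223-3p higher (1.17, adjusted p = 0.0418). Of the leukocyte markers only miR-223-3p was called, with means of 21959 CPM in Control and 49559 in LPD, while miR-142-5p stood at -0.17. None of the platelet or leukocyte markers was at 0 in either group. Hepatocyte markers summed to 29521 to 696990 CPM in Control and 21543 to 46856 in LPD, where miR-802-5p was at 0. In Control miR-802-5p had 42.3, 525 and 98.7 CPM, of which only Control 2 exceeded the estimated level of 1 molecule in every late library. Muscle markers summed to 1423 to 7709 and 715 to 10713 CPM, with miR-133b-3p at 0 in LPD. Its 15.3 to 71.7 CPM in Control lay below the estimated level of 1 late molecule, so by that rough estimate this 0 does not show a fall. Neuron markers summed to 4852 to 9214 and 2294 to 3455 CPM, nearly all of it miR-128-3p (4809 to 9193 and 2176 to 3455). miR-124-3p was at 0 in both groups. miR-9a-5p had means of 30.3 CPM in Control and 39.6 in LPD, where 1 library had counts. The part of these cell types in the late values was not tested.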

How the data were processed

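Small RNA of serum (miRNeasy kit) went into QIAseq miRNA libraries, per the labels' protocols. The authors deposited unnormalised whole-number counts for each miRNA name, and 0 values of the matrix differed from the single-library files. The submitters' processing notes name mRatBN7.2 as the build. What the sources used here leave unstated is the aligner, the counting tool, its annotation, the read filters and whether molecular identifiers were collapsed. Molecule estimates therefore cover counting error only. miRNAs were kept by filterByExpr (minimum 10 counts, 15 in total), scaled by TMM and fitted over all 9 libraries with edgeR 4.0.16 (limma 3.58.1, DESeq2 1.42.0, R 4.3.3), robust, without covariates. The 3 groups share 1 estimate of the spread. Standard errors are the fold change divided by the root of F, and intervals cover 95%. The fit was tested on simulated data in which as many miRNAs rose as fell in LPD. The late calls here were mostly lower, so that test does not check them. Molecules per library were estimated as the number that gives the observed count of detected miRNAs under the mean profile of Control and EPD.

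Groups and replicate numbers came from sample titles. The labels do not say that libraries came from separate animals, so p-values measure only the spread between these samples. Named were, by rule, the 7 miRNAs, fixed lists (other arms, serum references, endothelium, cell markers), and the 3 miRNAs nearest in pattern to miR-23a-3p and to miR-27b-3p. Members and lists were chosen with earlier results of these data known. Alternatives covered scaling, filter, test, samples, molecules, pairing, prior counts and leaving out each library. Sequences are from RefSeq (GRCr8).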

Additional observations from a re-analysis of the deposited data

How the results depend on the processing

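Counts of the 7 miRNAs called were 0 throughout in EPD against Control. In LPD against Control the count of 1 became 0 with DESeq2's size factors in edgeR, library totals, no filter, only miRNAs with counts in all 9 libraries, only 2 groups and counts per molecule. In LPD against EPD the count of 2 became 0 under the same settings except no filter. Both ranged from 0 to 2 with single libraries left out. The 2 in LPD against Control were the 5p arms, called without LPD 1, where the late group has no count of them. Without LPD 1 the 2 called in LPD against EPD were the same arms. Those calls are not read as a fall. Why the other counts moved was not tested. Over all miRNAs, the 109 calls in LPD against Control and 108 in LPD against EPD became 38 and 35 among miRNAs counted in all 9 libraries, 52 and 67 with 2 groups, and 31 and 31 per molecule. Ratios without overlap numbered 2 to 6 within the clusters and 3 to 8 for miR-451-5p with a library left out. Same-numbered libraries deviated with correlations of -0.11 to 0.09 and others with -0.10 to 0.12, and 5 of 9 correlated best with their own number. Between EPD and LPD, same-numbered pairs stood at 0.065, 0.048 and 0.039, and the others at -0.091 to 0.055. Headers of the deposited counts give EPD and LPD libraries of the same number a shared letter and number. Whether they came from the same rats is not stated, and these correlations cannot decide it. The replicate block gave 0, 1 and 2 calls among the 7.

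Log2 fold changes turned as follows. The late values of both 5p arms are fitted to an estimated 1 and 2 molecules and are no measure of a fold. In EPD against Control, miR-23a-3p stood at 0.084 with library totals, 0.082 without a filter, 0.014 with 2 groups and 0.0079 per molecule. miR-24-3p stood there at 0.036 with library totals and 0.037 without a filter, miR-27b-3p at -0.025 over miRNAs counted in all 9 libraries, and miR-27a-5p at 0.10 without a filter, 0.029 with 2 groups and 0.17 with the replicate block. For LPD against Control, miR-24-3p stood at 0.033 with DESeq2's size factors and with DESeq2, 0.0069 with library totals and 0.070 over miRNAs counted in all 9. miR-23a-5p stood there at 0.041 with DESeq2's size factors and 0.011 with DESeq2, and miR-27a-5p at -2.65 with limma-voom and -1.23 with the block. In LPD against EPD, miR-23b-3p stood at 0.13 with DESeq2's size factors and with DESeq2, 0.19 over miRNAs counted in all 9 and 0.11 with the block. miR-24-3p stood there at 0.16, 0.16 and 0.22 under the first 3 of these and 0.038 with 2 groups, and miR-27a-5p at -2.57 with limma-voom and -1.40 with the block.

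With single libraries left out, the fold changes in EPD against Control, LPD against Control and LPD against EPD ranged from -0.24 to 0.33, -0.18 to 0.51 and -0.011 to 0.27 for miR-23a-3p, -0.38 to 0.77, -0.27 to 0.67 and -0.40 to 0.38 for miR-23b-3p, and -0.20 to 0.28, -0.38 to 0.20 and -0.19 to 0.036 for miR-24-3p. For miR-23a-5p they ranged from -0.50 to 0.69, -8.52 to 0.42 and -8.68 to 0.26, and for miR-27a-5p from -0.22 to 0.21, -8.97 to 1.03 and -9.02 to 0.99, the lowest being fitted values of late groups with no count. Ratio differences in EPD against Control ranged from -0.38 to 0.48 for the arms of miR-23a, -0.34 to 0.084 for miR-23a-3p to miR-23b-3p, -0.17 to 0.076 for miR-24-3p to miR-23a-3p, -0.14 to 0.31 for miR-27b-3p to miR-23a-3p and -0.47 to 0.28 for miR-27b-3p to miR-23b-3p. Late differences from Control ranged from -0.25 to 0.23 for miR-23a-3p to miR-23b-3p and -0.64 to 0.16 for miR-27a-3p to miR-27b-3p, and in LPD against EPD from -0.088 to 0.39 for miR-23a-3p to miR-23b-3p.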
